A study of Mus musculus with 12 samples.

Results

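The genes described here are 32 genes of the cell cycle and of DNA replication, followed in the hippocampus of mice with recurrent seizures. The mice were injected with saline or with lipopolysaccharide (LPS), the endotoxin of Gram-negative bacteria, which sets off inflammation throughout the body. The genes were taken as the array probes that carry one of the 32 gene names, and a gene was kept when the scanner software marked 1 of its probes as well above background on each of the 3 arrays of 1 or more groups. The probe with the highest mean signal then stood for the gene. Of 51 such probes 38 passed, and 30 of the 32 genes could be measured, out of 18193 genes tested and 27398 gene names on the array. Of the 2 genes that could not be measured, Aurkb, the kinase of the chromosomal passenger complex, had 1 probe, above background on no array. Kif11, the motor that pushes spindle poles apart, had 3, of which 1 was above background on 2 LPS 24 h arrays and on no other array. All mice were male, of strain C57BL/6N and 12 weeks old. Kainate, which activates glutamate receptors and so starts seizures, had been put into the dorsal hippocampus of the left side (50 nl of a 20 mM solution). After 3 weeks, with seizures established, each mouse was given saline or 100 µg/kg of LPS from Salmonella enterica (serotype abortus equi) into the peritoneum, and the hippocampus was taken 4 h or 24 h later. The 4 groups, called saline 4 h, LPS 4 h, saline 24 h and LPS 24 h, held 3 arrays each. The saline mice had received kainate too, there was no group without it, and the labels do not say which side was dissected. That each array stands for a separate animal rests on the labels, so p-values measure the spread between these arrays.

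A cell that divides copies its DNA in S phase and separates the copies in mitosis. D-type and E-type cyclins start the program, the MCM helicase unwinds the DNA at replication origins, and the sliding clamp and the enzymes that make deoxynucleotides serve the replication fork. Cyclins A and B, the Polo and Aurora kinases, spindle motors and kinetochore proteins act later, and the anaphase-promoting complex ends mitosis by marking cyclins and other proteins for destruction. In the adult hippocampus the dividing cells are neural progenitors of the dentate gyrus, oligodendrocyte precursors and, after injury, microglia and other glia; most neurons do not divide.

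Levels are log2 of the processed fluorescence intensity minus that of the array's 75th percentile, so that 0 is the brightness of the 75th percentile spot, and they compare arrays for 1 gene, not genes with each other. The 75th percentile itself was 385 ± 12.4 (SD, n = 3) intensity units on the saline 4 h arrays, 702 ± 35.6 for LPS 4 h, 798 ± 61.2 for saline 24 h and 864 ± 124 for LPS 24 h. For these groups in turn, 54.6%, 59.6%, 65.6% and 69.7% of probes were well above background. Of the 30 genes, 26, 29, 29 and 30 were above background on all 3 arrays of the group. The 4 h and 24 h arrays were scanned on different days, so the day and the time after injection cannot be told apart. All 12 markers of hippocampal neurons were above background on all arrays, as the tissue label says. In whole tissue, fewer dividing cells and less RNA per cell cannot be told apart.

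The promoters of these genes carry letters by which cell cycle genes are known to be timed. The CHR element and CCAAT boxes are known for genes of G2 phase and mitosis, and E2F sites for genes of DNA replication. RefSeq promoter windows (GRCm38.p6, 250 bases before to 50 after a start) were at hand for 26 of the 32 genes, in 27 windows. On either strand, the CHR letters TTTGAA stood in 44.4% of the 27 windows and in 17.9% of all 32851 windows. The letters CCAAT stood in 81.5% and 37.4%. At least 1 of the E2F spellings TTTCCCGC, TTTGGCGC, TTTCGCGC and TTTGCCGC stood in 14.8% and 2.26%, and the genes with such a spelling were Mcm3, Mcm5, Mcm6 and Mcm7. A match is a description of the letters and not a bound site. The bases before the start are shown for 3 genes with a CHR and for Mcm6 with E2F letters, because they were called at different times after LPS. They run 5′ to 3′ on the gene's strand with matches in capitals; for Mki67 the last 71 bases are left out, since another start of the gene lies within them.

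Mki67, chr7:135716451-135716579, minus strand: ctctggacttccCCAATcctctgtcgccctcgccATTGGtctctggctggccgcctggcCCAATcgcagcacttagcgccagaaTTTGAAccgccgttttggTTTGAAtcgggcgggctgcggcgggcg
Ube2c, chr2:164769729-164769928, plus strand: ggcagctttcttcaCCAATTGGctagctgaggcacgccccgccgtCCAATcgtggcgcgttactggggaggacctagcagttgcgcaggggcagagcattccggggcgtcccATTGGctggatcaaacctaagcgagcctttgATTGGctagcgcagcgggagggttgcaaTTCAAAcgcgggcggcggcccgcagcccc
Cdc20, chr4:118437344-118437543, minus strand: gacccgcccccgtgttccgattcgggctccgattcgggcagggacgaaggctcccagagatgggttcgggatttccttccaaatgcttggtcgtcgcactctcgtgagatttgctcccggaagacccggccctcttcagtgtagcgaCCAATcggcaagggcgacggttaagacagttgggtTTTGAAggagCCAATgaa
Mcm6, chr1:128359706-128359905, minus strand: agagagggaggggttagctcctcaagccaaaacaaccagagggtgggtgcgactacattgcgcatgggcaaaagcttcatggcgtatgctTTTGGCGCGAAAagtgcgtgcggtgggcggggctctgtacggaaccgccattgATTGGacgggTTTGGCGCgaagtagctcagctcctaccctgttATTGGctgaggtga

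Mki67 shows 3 CCAAT boxes and 2 CHR matches, Ube2c 5 and 1, Cdc20 2 and 1, and Mcm6 2 CCAAT boxes and 3 E2F matches. In Ube2c a pair of CCAAT boxes on opposite strands overlap, and in Mcm6 a pair of E2F matches do.

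At 4 h after LPS most of the genes that changed were lower than in saline, with Cdc20, Ccne1, Mcm3 and Birc5 lowered the most. Of the 30 genes 18 fell and 3 rose at a Benjamini-Hochberg adjusted p under 0.05, where 45.0% of all genes tested fell and 29.0% rose. At 24 h 15 fell and 4 rose, where 25.9% of all genes fell and 21.6% rose, and the proliferation marker Mki67 fell the most. The median log2 difference of the 30 genes was -0.28 at 4 h and -0.19 at 24 h, beside -0.15 and -0.019 for all genes. At 4 h 20 of the 30 genes, and at 24 h 22, lay below the median of all genes. The changes at 24 h were small: 1 gene fell and 1 rose by at least 1.5-fold, against 6 and 2 at 4 h. The shares of all genes that changed by this much are not given here. The rises of that size were those of Kif2c at both times and of Rrm2 at 4 h, both from spots near background.

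The number of genes called depended on how the arrays were scaled. Scaled by the median of each array, 21 genes fell and 2 rose at 4 h (54.2% and 21.5% of all genes), and 17 fell and 1 rose at 24 h (34.7% and 15.9%). Scaled by the 75th percentile over probes above background on all arrays, 15 fell and 6 rose at 4 h (37.7% and 35% of all genes), and 12 fell and 4 rose at 24 h (21.2% and 24.4%). The median of all genes at 4 h lay at -0.32 and -0.040 under these scalings. With the normexp background correction, which raises the floor under dim spots, 12 fell and 1 rose at 4 h (33.3% and 17% of all genes). At 24 h 5 fell and 0 rose with it by limma (11% and 9.28% of all genes), and 2 were higher at an unadjusted p under 0.05.

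**Figure D1:**
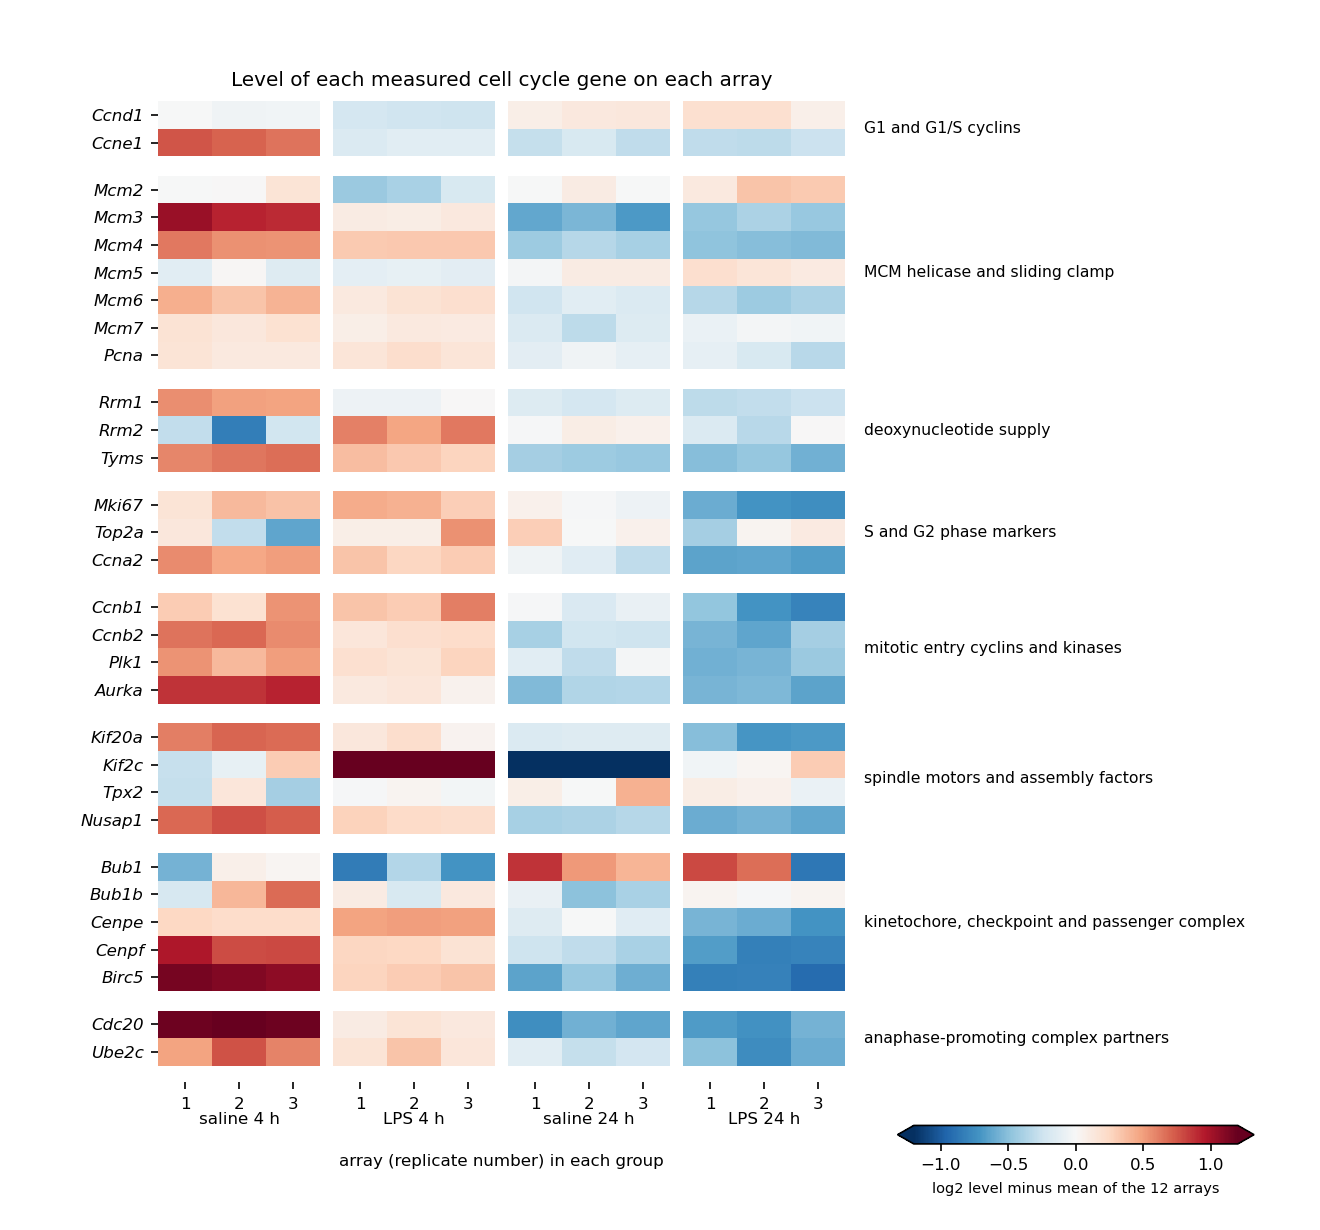
Each row is 1 of the 30 measured genes, grouped by role, and each column 1 of the 12 arrays; the colour is the log2 level on that array minus the gene's mean over the 12 arrays, red above and blue below it, with values past 1.2 shown in the end colour. The saline 4 h arrays hold the highest group mean of 18 genes and the LPS 24 h arrays the lowest of 19. This order was not counted over all genes.

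The response differed between the times for 17 genes, tested as the difference itself: it was more positive at 24 h than at 4 h for 12 and more negative for 5, where 41.7% and 27.1% of all genes were called. Of the 30 genes, the count of 12 lies near the share of all genes and that of 5 below it. The 5 were Rrm2, Cenpe, Mki67, Ccnb1 and Ccna2. Of the 30 genes 12 fell at both times: Mcm4, Mcm6, Rrm1, Ccna2, Ccnb2, Plk1, Aurka, Kif20a, Nusap1, Cenpf, Birc5 and Ube2c. The share of all genes that fell at both times was not counted, where 45.0% fell at 4 h and 25.9% at 24 h. Mcm2 and Mcm3 fell at 4 h and rose at 24 h, and Cenpe rose at 4 h and fell at 24 h. Kif2c was called higher at both times, but passed the filter through the LPS groups alone.

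**Figure D2:**
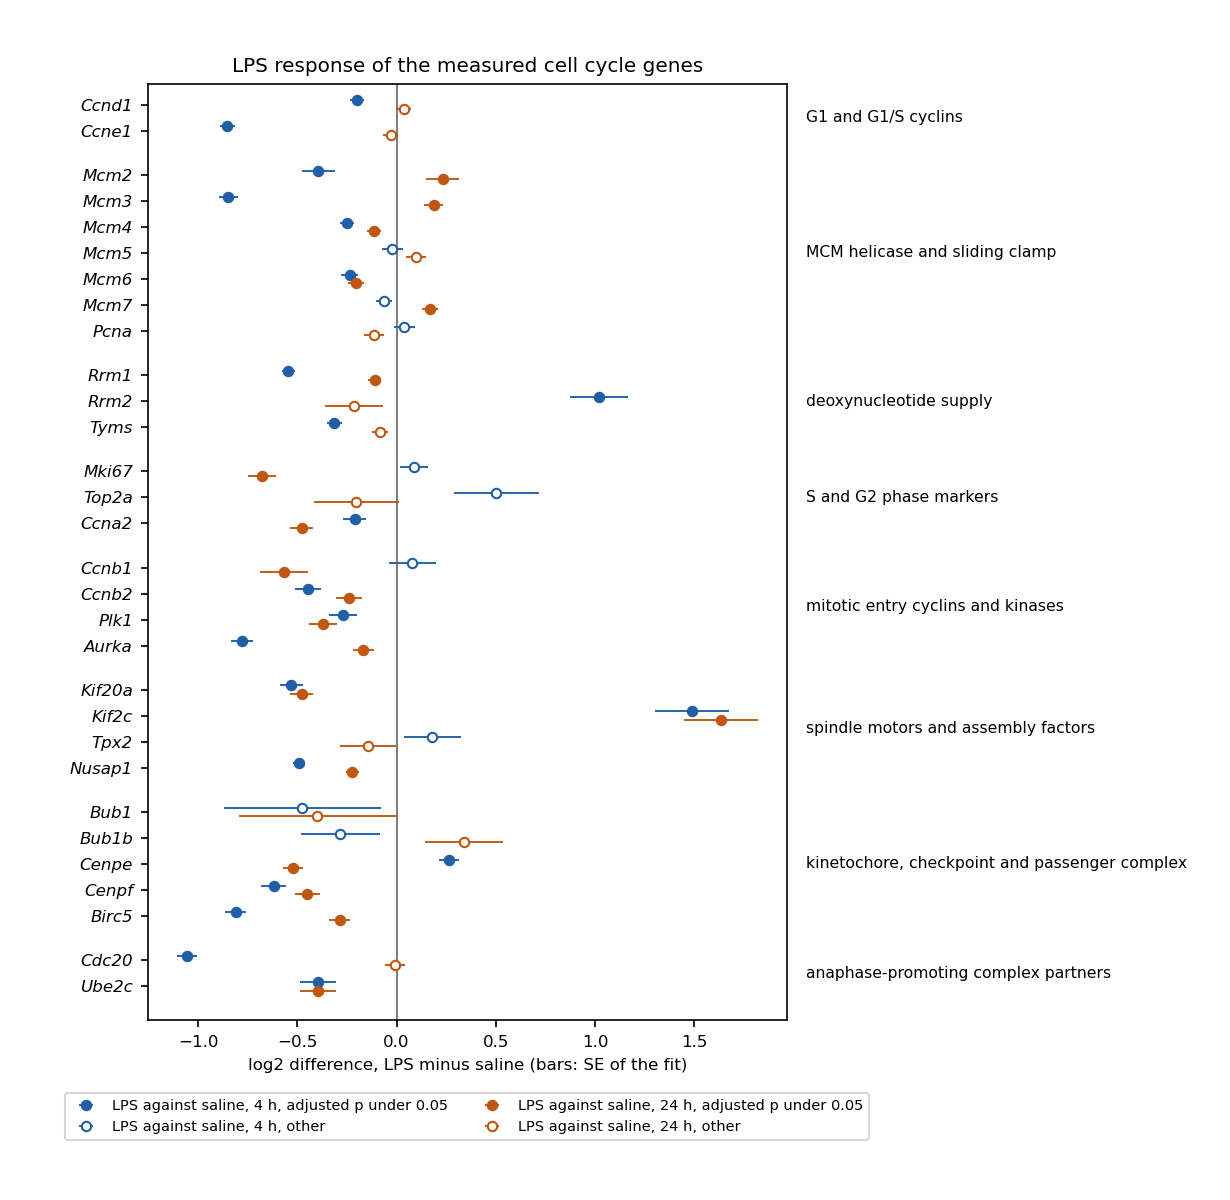
The log2 difference between LPS and saline is shown on the horizontal axis for each of the 30 measured genes at 4 h (blue) and 24 h (orange), with the SE of the fit as bars; filled points have an adjusted p under 0.05. Most filled points lie left of 0 at both times, Kif2c, which passed the filter through the LPS groups alone, lies right of it at both, and Mcm2, Mcm3 and Cenpe change side.

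The cyclins that start the cycle fell at 4 h and did not pass the test at 24 h. Ccne1, the cyclin that drives entry into S phase, had levels of 3.00, 2.95 and 2.89 with saline and 2.06, 2.11 and 2.10 with LPS at 4 h. Ccne1 at 24 h was at 1.96, 2.05 and 1.94 with saline and 1.94, 1.92 and 1.98 with LPS. The saline 4 h arrays stood above all 9 others, and the LPS and saline arrays of 24 h overlapped. Its log2 difference was -0.85 ± 0.039 (SE), adjusted p = 2.58e-08, at 4 h, a 1.81-fold fall, and -0.03 ± 0.039 (SE), adjusted p = 0.566, at 24 h. A second Ccne1 probe fell too at 4 h, by 0.41 ± 0.069 (SE), adjusted p = 0.000381 over all probes. It was far dimmer. Each Ccne1 probe has 60 bases but a placed span of only 24, at the same genomic position. The second probe is thus not shown to read another part of the gene. Ccnd1, the D-type cyclin that answers growth signals, at 4 h had levels of 1.00, 0.96 and 0.96 with saline and 0.80, 0.77 and 0.75 with LPS, without overlap. Its difference was -0.20 ± 0.037 (SE), adjusted p = 0.000628. At 24 h its difference was 0.036 ± 0.037 (SE), adjusted p = 0.463. The Ccnd1 call was lost with the 75th percentile over probes above background on all arrays (adjusted p = 0.0629) and in the deposited matrix (adjusted p = 0.145).

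The 6 subunits of the MCM helicase did not move as 1 group. At 4 h Mcm2, Mcm3, Mcm4 and Mcm6 fell, and at 24 h Mcm2, Mcm3 and Mcm7 rose while Mcm4 and Mcm6 fell; Mcm5 passed the test at neither time. Mcm3 had levels of 0.52, 0.41 and 0.38 with saline and -0.41, -0.43 and -0.39 with LPS at 4 h. Mcm3 at 24 h was at -1.14, -1.06 and -1.21 with saline and -0.98, -0.89 and -0.97 with LPS. No groups overlapped: saline 4 h was the highest, LPS 4 h came next, and saline 24 h was the lowest. Its difference was -0.85 ± 0.048 (SE), adjusted p = 1.1e-07, at 4 h and 0.19 ± 0.048 (SE), adjusted p = 0.00927, at 24 h, and the difference between the responses was 1.04 ± 0.068 (SE), adjusted p = 5.07e-07. A second Mcm3 probe, whose 60 bases lie across 517 genomic bases and so cross an intron, gave -0.64 ± 0.059 (SE), adjusted p = 5.1e-06 over all probes, at 4 h and 0.56 ± 0.059 (SE), adjusted p = 5.82e-05 over all probes, at 24 h. It was above background on all 12 arrays and is shown because it gave both directions again.

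Mcm3 probe, mm9 chr1:20795363-20795879, minus strand: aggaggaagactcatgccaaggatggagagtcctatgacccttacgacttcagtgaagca

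Mcm2, another subunit of the ring, at 24 h was at -2.71, -2.62 and -2.72 with saline and -2.59, -2.37 and -2.39 with LPS. All LPS 24 h values lay above the saline 24 h values, with a difference of 0.23 ± 0.082 (SE), adjusted p = 0.041, after a fall of 0.39 ± 0.082 (SE), adjusted p = 0.00147, at 4 h. Mcm7 at 24 h was at 1.05, 0.92 and 1.06 with saline and 1.14, 1.21 and 1.18 with LPS, again without overlap, and differed by 0.17 ± 0.04 (SE), adjusted p = 0.00648. These rises were small, and those of Mcm2, Mcm3 and Mcm7 lost their call under median scaling (adjusted p = 0.121, 0.14 and 0.139) and under normexp (adjusted p = 0.56, 0.265 and 0.129). The rise of Mcm2 also depended on single arrays, losing its call without LPS 24 h replicate 2 or 3, saline 24 h replicate 1 or 3, LPS 4 h replicate 2 or saline 4 h replicate 2 (adjusted p from 0.0519 to 0.13). The deposited matrix called neither Mcm2 nor Mcm3 at 24 h (adjusted p = 0.155 and 0.148), and normexp did not call the 4 h fall of Mcm2 (adjusted p = 0.133). At 4 h Mcm7 differed by -0.062 ± 0.04 (SE), adjusted p = 0.188, and was called lower under median scaling (-0.22, adjusted p = 0.00173).

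Mcm6, whose promoter is shown above, went the other way at 24 h. It was at 3.37, 3.27 and 3.35 with saline and 3.05, 3.1 and 3.13 with LPS at 4 h. Mcm6 at 24 h was at 2.69, 2.79 and 2.75 with saline and 2.59, 2.49 and 2.55 with LPS, and each group lay below the one before it. Its differences were -0.24 ± 0.041 (SE), adjusted p = 0.000436, at 4 h and -0.20 ± 0.041 (SE), adjusted p = 0.0026, at 24 h. The 4 h fall of Mcm6 was absent after quantile normalization (0.0069, adjusted p = 0.88) and not called in the deposited matrix (adjusted p = 0.507), and the 24 h fall was not called with normexp (adjusted p = 0.0929). Mcm4 fell by 0.25 ± 0.035 (SE), adjusted p = 9.01e-05, at 4 h and by 0.12 ± 0.035 (SE), adjusted p = 0.0214, at 24 h. The first was not called after quantile normalization (adjusted p = 0.409) or in the deposited matrix. The second was lost when saline 24 h replicate 2, or replicate 2 or 3 of LPS 24 h, was left out (adjusted p = 0.0742, 0.0587 and 0.0549). The slide block ended the 24 h calls of Mcm2 and Mcm4 (adjusted p = 0.0598 and 0.0538), and the replicate block that of Mcm4 (adjusted p = 0.0704). Mcm5 differed by -0.021 ± 0.051 (SE), adjusted p = 0.723, at 4 h and 0.097 ± 0.051 (SE), adjusted p = 0.153, at 24 h, and was called lower at 4 h under median scaling (-0.18, adjusted p = 0.0161). Pcna, the clamp that holds the polymerase on DNA, was at 3.58, 3.52 and 3.52 with saline and 3.56, 3.62 and 3.56 with LPS at 4 h. Pcna at 24 h was at 3.28, 3.36 and 3.31 with saline and 3.30, 3.22 and 3.08 with LPS. LPS and saline overlapped at both times, and the Pcna differences were 0.04 ± 0.052 (SE), adjusted p = 0.508, at 4 h and -0.11 ± 0.052 (SE), adjusted p = 0.1, at 24 h. Pcna was called higher at 4 h after quantile normalization (0.27, adjusted p = 0.0011), in the deposited matrix (adjusted p = 0.0326) and with the 75th percentile over probes above background on all arrays (adjusted p = 0.0187). It was called lower at 24 h under median scaling (adjusted p = 0.0341) and without LPS 24 h replicate 1 (adjusted p = 0.0199).

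The subunits of ribonucleotide reductase, the enzyme that makes deoxynucleotides, moved in opposite directions at 4 h. Rrm1, the large subunit, at 4 h was at 0.69, 0.62 and 0.62 with saline and 0.074, 0.077 and 0.14 with LPS and fell by 0.55 ± 0.032 (SE), adjusted p = 1.43e-07. Rrm2, the small subunit whose level follows S phase, was at -4.37, -4.91 and -4.30 with saline and -3.47, -3.60 and -3.44 with LPS at 4 h. Rrm2 at 24 h was at -4.09, -3.98 and -4.01 with saline and -4.25, -4.41 and -4.07 with LPS. All LPS 4 h values lay above all saline 4 h values, of which that of replicate 2 was the lowest of the 12, and the spot was above background on 2 of 3 saline 4 h arrays. The difference was 1.02 ± 0.15 (SE), adjusted p = 0.000113, a 2.03-fold rise, and was lost with the normexp correction (adjusted p = 0.622). At 24 h LPS and saline overlapped for Rrm2 (-0.21 ± 0.15 (SE), adjusted p = 0.268), and the response was lower at 24 h than at 4 h (-1.23 ± 0.21 (SE), adjusted p = 0.000421). Rrm1 at 24 h was at -0.033, -0.075 and -0.031 with saline and -0.18, -0.16 and -0.12 with LPS, with a small fall of 0.11 ± 0.032 (SE), adjusted p = 0.0172. That call was lost when replicate 1 or 3 of saline 24 h, or replicate 1 of LPS 24 h, was left out (adjusted p = 0.0508, 0.0503 and 0.0582), and with the replicate block (adjusted p = 0.0603). Tyms, which makes thymidylate, fell by 0.31 ± 0.039 (SE), adjusted p = 4.28e-05, at 4 h. A second Tyms probe, whose position overlaps the first, fell by 0.24 ± 0.057 (SE), adjusted p = 0.00376 over all probes. The remaining Tyms probe was dim and above background on no 4 h array, and the mean of the 3 probes was not called at 4 h (adjusted p = 0.298). At 24 h Tyms differed by -0.085 ± 0.039 (SE), adjusted p = 0.106, and was called lower under median scaling (-0.16, adjusted p = 0.00826).

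Mki67, the nuclear protein used to mark dividing cells, did not differ by the test at 4 h and fell at 24 h. It was at -1.84, -1.61 and -1.65 with saline and -1.55, -1.57 and -1.71 with LPS at 4 h. Mki67 at 24 h was at -1.94, -2.02 and -2.06 with saline and -2.59, -2.72 and -2.75 with LPS. At 4 h the groups overlapped, and at 24 h all LPS arrays lay below all others. The difference was 0.088 ± 0.07 (SE), adjusted p = 0.279, at 4 h and -0.68 ± 0.07 (SE), adjusted p = 3.75e-05, at 24 h, a 1.60-fold fall, and the responses differed by -0.77 ± 0.099 (SE), adjusted p = 6.7e-05. A second Mki67 probe gave -0.12 ± 0.15 (SE), adjusted p = 0.516 over all probes, at 4 h and -0.82 ± 0.15 (SE), adjusted p = 0.00185 over all probes, at 24 h. The 4 h difference of Mki67 passed the test with the 75th percentile over probes above background on all arrays (0.20, adjusted p = 0.024) and with the slide as a block (adjusted p = 0.0322).

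Ccna2, the cyclin of S and G2 phase, fell at both times. It was at -1.74, -1.84 and -1.80 with saline and -1.96, -2.05 and -2.00 with LPS at 4 h. Ccna2 at 24 h was at -2.36, -2.45 and -2.61 with saline and -2.95, -2.94 and -2.97 with LPS, and the 4 groups followed each other downward without overlap. Its differences were -0.21 ± 0.058 (SE), adjusted p = 0.00755, at 4 h and -0.48 ± 0.058 (SE), adjusted p = 0.000107, at 24 h, and the fall was larger at 24 h (difference -0.27 ± 0.081 (SE), adjusted p = 0.0145). The 4 h fall was not called with normexp (adjusted p = 0.242) or with the 75th percentile over probes above background on all arrays (adjusted p = 0.145). Top2a, the topoisomerase that untangles copied chromosomes, was barely measurable: it was above background on 0 of 3 saline 4 h and 1 of 3 LPS 4 h arrays and on all arrays of 24 h. No fold is given for it at 4 h, where its adjusted p was 0.0573 and passed the threshold without saline 4 h replicate 1 (0.0119), without LPS 24 h replicate 1 (0.0473), with the slide block (0.0376) and with the 75th percentile over probes above background on all arrays (0.0255). On the 24 h arrays it was at -5.72, -6.02 and -5.96 with saline and -6.42, -5.99 and -5.91 with LPS, with overlap and a difference of -0.20 ± 0.21 (SE), adjusted p = 0.477.

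**Figure D3:**
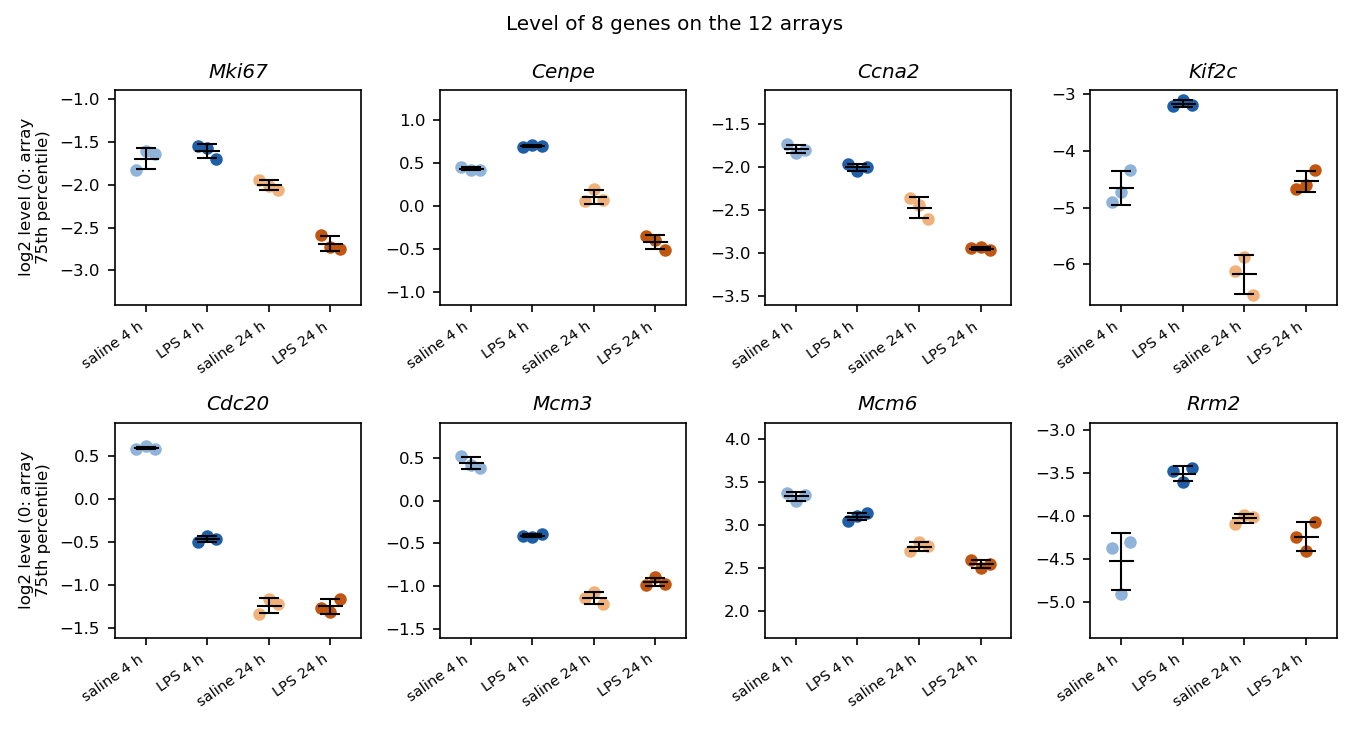
Log2 level on each array (points) with the group mean and SD (black lines, n = 3) for 8 genes in saline 4 h, LPS 4 h, saline 24 h and LPS 24 h; 0 is the 75th percentile of the array, and the scales differ between panels. Mki67 and Ccna2 are lowest in LPS 24 h, Cdc20 and Mcm3 are highest in saline 4 h, and Kif2c, mostly below background with saline, is higher with LPS at both times.

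The 4 cyclins and kinases of mitotic entry were called lower at 24 h, and 3 of them, without Ccnb1, also at 4 h. Ccnb1, the cyclin that starts mitosis with CDK1, was at -4.63, -4.76 and -4.39 with saline and -4.59, -4.63 and -4.32 with LPS at 4 h. Ccnb1 at 24 h was at -4.95, -5.12 and -5.03 with saline and -5.41, -5.65 and -5.74 with LPS. The 4 h groups overlapped, and all LPS 24 h values were below all others. It differed by 0.08 ± 0.12 (SE), adjusted p = 0.567, at 4 h and fell by 0.57 ± 0.12 (SE), adjusted p = 0.00341, at 24 h. A second Ccnb1 probe was above background on 3 saline 24 h arrays, 1 LPS 24 h array and 1 LPS 4 h array; it passed the filter through saline 24 h alone, and its difference is not used. The Ccnb1 fall was not called with normexp (adjusted p = 0.685) or in the deposited matrix (adjusted p = 0.106).

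Plk1, the Polo-like kinase that acts from mitotic entry to cell division, was at -2.00, -2.15 and -2.03 with saline and -2.35, -2.38 and -2.27 with LPS at 4 h. Plk1 at 24 h was at -2.68, -2.85 and -2.56 with saline and -3.12, -3.09 and -2.99 with LPS, without overlap between LPS and saline at either time. It fell by 0.27 ± 0.072 (SE), adjusted p = 0.00662, at 4 h and by 0.37 ± 0.072 (SE), adjusted p = 0.00211, at 24 h. Aurka, the kinase of the spindle poles, at 4 h was at 0.66, 0.66 and 0.72 with saline and -0.08, -0.056 and -0.15 with LPS and fell 1.72-fold (-0.78 ± 0.053 (SE), adjusted p = 4.28e-07). Its 24 h fall was small (-0.17 ± 0.053 (SE), adjusted p = 0.0266), the responses differed by 0.61 ± 0.075 (SE), adjusted p = 4.65e-05, and the 24 h call was lost when replicate 2 or 3 of saline 24 h, or replicate 3 of LPS 24 h, was left out (adjusted p = 0.0894, 0.0919 and 0.0852). With the slide as a block the 24 h fall of Aurka was not called (adjusted p = 0.0529), nor with the replicate number as a block (adjusted p = 0.0794). Ccnb2, the second B-type cyclin, fell by 0.45 ± 0.064 (SE), adjusted p = 0.000116, at 4 h and by 0.24 ± 0.064 (SE), adjusted p = 0.0122, at 24 h. The 4 h fall of Plk1 was not called with normexp (adjusted p = 0.28) or with the 75th percentile over probes above background on all arrays (adjusted p = 0.0883). With normexp the 24 h falls of Plk1, Aurka and Ccnb2 were not called (adjusted p = 0.268, 0.162 and 0.142).

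Among 4 measured spindle proteins, Kif20a and Nusap1 fell at both times, Tpx2 passed the test at neither, and Kif2c was called higher at both from a probe that passed the filter through the LPS groups alone. Kif20a, a motor of the central spindle needed for cell division, was at -1.07, -0.99 and -1.01 with saline and -1.55, -1.47 and -1.64 with LPS at 4 h. Kif20a at 24 h was at -1.86, -1.84 and -1.84 with saline and -2.20, -2.40 and -2.38 with LPS. LPS lay below saline at both times without overlap, by 0.53 ± 0.058 (SE), adjusted p = 1.48e-05, at 4 h and 0.48 ± 0.058 (SE), adjusted p = 0.000113, at 24 h. A second Kif20a probe, whose position overlaps the first, fell at both times as well. Nusap1, which bundles spindle microtubules, fell by 0.49 ± 0.032 (SE), adjusted p = 3.28e-07, at 4 h and by 0.22 ± 0.032 (SE), adjusted p = 0.000362, at 24 h, with no overlap at either time. The 24 h fall of Nusap1 was not called in the deposited matrix (adjusted p = 0.0968), and neither was called with normexp (adjusted p = 0.0966 and 0.745). Tpx2, which activates Aurka on the spindle, differed by 0.18 ± 0.14 (SE), adjusted p = 0.281, at 4 h and -0.14 ± 0.14 (SE), adjusted p = 0.449, at 24 h, and its 4 h difference passed the test without saline 4 h replicate 2 (adjusted p = 0.0242).

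Kif2c, a kinesin that takes microtubules apart at the kinetochore, was called higher with LPS at both times, from spots near background. It was at -4.91, -4.73 and -4.32 with saline and -3.20, -3.09 and -3.19 with LPS at 4 h. Kif2c at 24 h was at -6.11, -5.86 and -6.54 with saline and -4.68, -4.60 and -4.33 with LPS. At each time all 3 LPS arrays lay above all 3 saline arrays, and saline 24 h was the lowest group. The probe was above background on 1 of 3 arrays in each saline group and on all LPS arrays. It thus passed the filter through the LPS groups alone, and a filter passed in this way favours genes that are higher there. The fitted difference was 1.49 ± 0.19 (SE), adjusted p = 3.99e-05, at 4 h and 1.64 ± 0.19 (SE), adjusted p = 7.11e-05, at 24 h; no fold is given, since most saline spots were not above background. This was the only Kif2c probe, and with normexp the difference shrank to 0.32 and 0.37 (adjusted p = 0.123 and 0.141).

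Of 5 measured genes of the kinetochore, the spindle checkpoint and the passenger complex, Cenpf and Birc5 fell at both times and Cenpe changed direction. Cenpe, the motor that brings chromosomes to the middle of the spindle, was at 0.46, 0.43 and 0.43 with saline and 0.70, 0.71 and 0.70 with LPS at 4 h. Cenpe at 24 h was at 0.057, 0.21 and 0.068 with saline and -0.35, -0.39 and -0.50 with LPS. LPS lay above saline at 4 h and below it at 24 h, with no overlap at either time. The difference was 0.26 ± 0.049 (SE), adjusted p = 0.000655, at 4 h and -0.52 ± 0.049 (SE), adjusted p = 1.85e-05, at 24 h, a 1.44-fold fall, and the responses differed by -0.79 ± 0.069 (SE), adjusted p = 3.96e-06. The 4 h rise was lost under median scaling (adjusted p = 0.151). A second Cenpe probe was above background on 3 saline 24 h arrays, 1 LPS 24 h array and no 4 h array; it passed the filter through saline 24 h alone, and its difference is not used.

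Birc5, the survivin subunit of the passenger complex, was at 0.38, 0.34 and 0.31 with saline and -0.51, -0.47 and -0.43 with LPS at 4 h. Birc5 at 24 h was at -1.41, -1.23 and -1.36 with saline and -1.58, -1.58 and -1.69 with LPS, without overlap between any groups. It fell 1.75-fold at 4 h (-0.81 ± 0.052 (SE), adjusted p = 2.74e-07) and 1.22-fold at 24 h (-0.29 ± 0.052 (SE), adjusted p = 0.00138). Cenpf, a large protein of the outer kinetochore, fell by 0.62 ± 0.063 (SE), adjusted p = 8.2e-06, at 4 h and by 0.45 ± 0.063 (SE), adjusted p = 0.000281, at 24 h. Neither fall of Cenpf was called with normexp (adjusted p = 0.0663 and 0.243). The checkpoint kinases Bub1 and Bub1b passed the test at neither time. Bub1 at 24 h was at -2.19, -2.54 and -2.66 with saline and -2.27, -2.39 and -3.93 with LPS, with LPS replicate 3 far below the others. It differed by -0.48 ± 0.39 (SE), adjusted p = 0.299, at 4 h and -0.40 ± 0.39 (SE), adjusted p = 0.446, at 24 h. Bub1b differed by -0.28 ± 0.20 (SE), adjusted p = 0.223, at 4 h and 0.34 ± 0.20 (SE), adjusted p = 0.193, at 24 h. Its 4 h difference passed the test without saline 4 h replicate 1 (-0.53, adjusted p = 0.00754), after quantile normalization (-0.45, adjusted p = 0.0403) and under median scaling (-0.45, adjusted p = 0.0454). The 24 h difference of Bub1b passed it in the fit of the 6 arrays of that time (adjusted p = 0.0444).

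Both partners of the anaphase-promoting complex fell at 4 h. Cdc20, which brings cyclin B to the complex, was at 0.59, 0.61 and 0.59 with saline and -0.49, -0.42 and -0.47 with LPS at 4 h. Cdc20 at 24 h was at -1.34, -1.17 and -1.22 with saline and -1.27, -1.32 and -1.16 with LPS. Saline 4 h stood above every other array, LPS 4 h came next, and the 24 h groups overlapped. It fell 2.08-fold at 4 h (-1.06 ± 0.051 (SE), adjusted p = 3.94e-08) and differed by -0.0073 ± 0.051 (SE), adjusted p = 0.923, at 24 h; the responses differed by 1.05 ± 0.073 (SE), adjusted p = 7.53e-07. Ube2c, the enzyme that starts the ubiquitin chains, was at -3.07, -2.79 and -2.96 with saline and -3.39, -3.22 and -3.41 with LPS at 4 h. Ube2c at 24 h was at -3.69, -3.85 and -3.78 with saline and -4.05, -4.31 and -4.15 with LPS, below saline at both times without overlap. It fell by 0.40 ± 0.09 (SE), adjusted p = 0.00257, at 4 h and by 0.40 ± 0.09 (SE), adjusted p = 0.005, at 24 h, and neither fall was called with normexp (adjusted p = 0.149 and 0.38). The genes with CHR and CCAAT letters shown above were picked for their different calls: Mki67 fell at 24 h, Ube2c at both times and Cdc20 at 4 h.

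The saline groups also differed from each other, with most of the genes lower at 24 h. From saline 4 h to saline 24 h, 23 of the 30 genes fell and 4 rose, where 47.5% of all genes fell and 33.2% rose, and the median was -0.66 beside -0.14 for all genes. Scaled by the array median 24 fell and 0 rose by limma (55.2% and 25.5% of all genes; 0 rose at an unadjusted p under 0.05), and by the 75th percentile over probes above background on all arrays 19 fell and 6 rose (39.9% and 40.9%). The largest falls were in Cdc20 (-1.84 ± 0.051 (SE), adjusted p = 3.25e-10), Birc5 (-1.68 ± 0.052 (SE), adjusted p = 6.52e-10) and Mcm3 (-1.57 ± 0.048 (SE), adjusted p = 5.67e-10), the genes with large falls after LPS at 4 h; both comparisons use the saline 4 h arrays. The second Mcm3 probe fell less, with -0.59 ± 0.059 (SE), adjusted p = 6.57e-06 over all probes. For Ccne1 the chosen probe gave -0.96 and the second -0.064 ± 0.069 (SE), adjusted p = 0.408 over all probes. The rises were in Rrm2, Tpx2, Mcm5 and Ccnd1, by 0.50, 0.35, 0.15 and 0.15. The saline 4 h arrays had the lowest 75th percentile and the fewest probes above background of the 4 groups, and the part of this in the results was not tested.

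Set against saline 24 h in place of saline 4 h, the LPS 4 h arrays gave the opposite picture: 23 of the 30 genes were higher and 4 lower, where 39.7% of all genes were higher and 33.4% lower, with a median of 0.41 beside 0.030. These are the same LPS arrays, and the other control was taken at another time and scanned on another day. Of the 18 genes that fell against saline 4 h, 16 were higher than saline 24 h, among them Cdc20 at 0.78 (adjusted p = 3.71e-07), Birc5 at 0.86 (adjusted p = 1.92e-07), Mcm3 at 0.73 (adjusted p = 3.79e-07) and Ccne1 at 0.11 (adjusted p = 0.0257). The second probes of Mcm3 and Ccne1 were not higher in LPS 4 h than in saline 24 h. Their mean levels were -1.91 in LPS 4 h and -1.86 in saline 24 h for Mcm3, and -2.87 and -2.53 for Ccne1. Mcm2 at -0.37 (adjusted p = 0.00239) and Ccnd1 at -0.35 (adjusted p = 1.3e-05) were lower than both saline groups. Kif2c at 3.01 (adjusted p = 2.35e-07), Rrm2 at 0.52 (adjusted p = 0.00895) and Cenpe at 0.59 (adjusted p = 1.97e-06) were higher than both saline groups, Kif2c again with its saline spots mostly not above background. At 24 h, all 15 genes that fell against saline 24 h were also lower than saline 4 h. Each of the 15 was lower in saline 24 h than in saline 4 h, so this was fixed in advance. Against saline 4 h the rises of Mcm3 and Mcm7 turned to -1.39 and -0.21. The second Mcm3 probe stayed near saline 4 h, with mean levels of -1.30 in LPS 24 h and -1.27 in saline 4 h. The 24 h difference of Kif2c shrank to 0.12 against saline 4 h and was not called by limma (adjusted p = 0.574). The shares of all genes called against both saline groups were not counted.

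**Figure D4:**
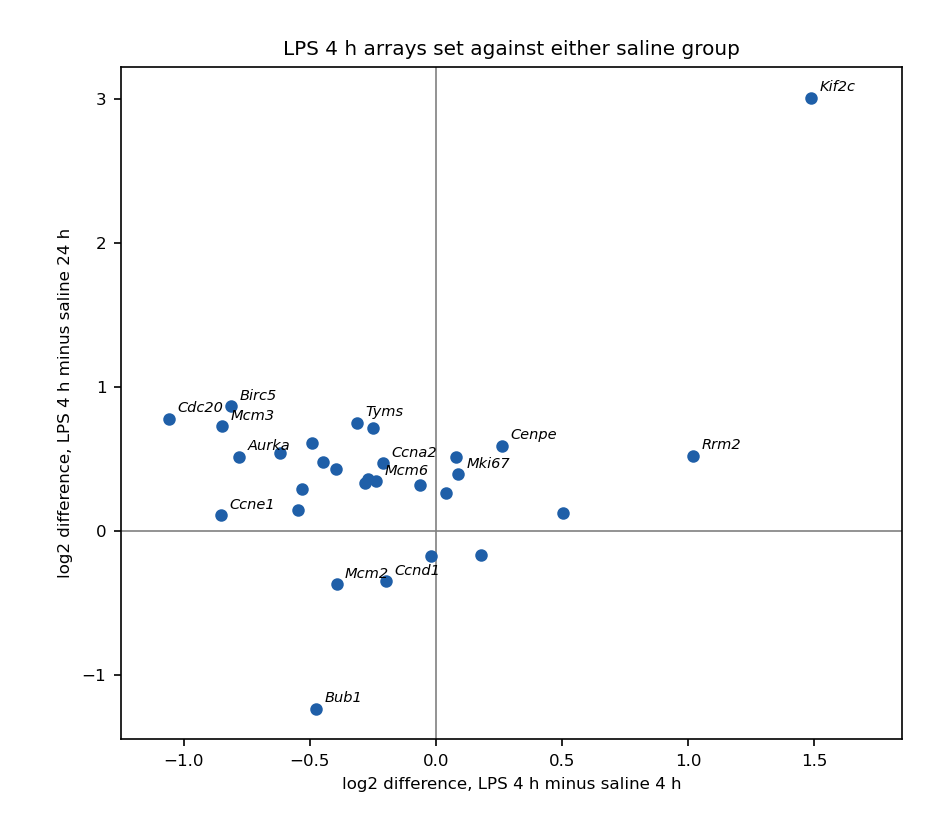
Each point is 1 of the 30 measured genes, with the log2 difference of LPS 4 h from saline 4 h on the horizontal axis and from saline 24 h on the vertical axis; both use the same LPS 4 h arrays. Most points lie in the upper left, lower than saline 4 h and higher than saline 24 h, and Kif2c, Rrm2 and Cenpe are higher than both.

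Other genes of the same pathways, from lists of known members, were counted in the same fits. The genes named are those with the smallest adjusted p of their list at a time, and Tob1. The counts stand beside 45.0% lower and 29.0% higher of all genes at 4 h and 25.9% and 21.6% at 24 h. Of 38 further factors of replication origins and forks, 26 fell and 3 rose at 4 h (median -0.28) and 10 fell and 4 rose at 24 h (median -0.063), the latter near or below the shares of all genes. Cdt1, which loads the MCM helicase on DNA, fell at 4 h (-0.90 ± 0.044 (SE), adjusted p = 4.24e-08) and rose at 24 h (0.39 ± 0.044 (SE), adjusted p = 7.01e-05). Of 32 further genes of mitosis and cell division, out of 41 listed, 21 fell and 5 rose at 4 h (median -0.30) and 15 fell and 5 rose at 24 h (median -0.17). Cdca5, which holds sister chromatids together, fell at 4 h (-1.05 ± 0.062 (SE), adjusted p = 1.51e-07) and rose at 24 h (0.29 ± 0.062 (SE), adjusted p = 0.00346). Pbk, a kinase of mitotic cells, fell at 24 h (-1.34 ± 0.047 (SE), adjusted p = 2.54e-08). Pbk was at mean levels of -3.00 in saline 24 h and -4.34 in LPS 24 h, and no fall among the 30 genes at 24 h was as large.

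Among the inhibitors of the cell cycle, Cdkn1a had the smallest adjusted p at both times, but not the largest rise at 4 h. Cdkn1a, the inhibitor p21 that stops cyclin-dependent kinases, rose at both times, by 2.58 ± 0.04 (SE), adjusted p = 6.47e-11, at 4 h and 1.29 ± 0.04 (SE), adjusted p = 1.01e-08, at 24 h. Tob1, an antiproliferative gene of the same list, rose more at 4 h (2.83 ± 0.06 (SE), adjusted p = 2.67e-10). Tob1 was not called at 24 h (adjusted p = 0.129), and LPS 4 h was lower than saline 24 h for it (-0.32, adjusted p = 0.000756). Of 14 such genes 5 rose and 7 fell at 4 h (median -0.24), and 5 rose and 1 fell at 24 h (median 0.092); the 4 h counts lie near the shares of all genes. Of 13 further cyclins, kinases and their regulators 4 rose and 5 fell at 4 h (median -0.22). Cdk6, a partner of D-type cyclins, rose at 4 h (1.2 ± 0.034 (SE), adjusted p = 1.36e-09). In that list, at 24 h 2 rose and 4 fell (median -0.067), and the D-type cyclin Ccnd3 rose (0.75 ± 0.036 (SE), adjusted p = 2.09e-07). Of 16 genes of the RB and E2F family and related factors 7 rose and 6 fell at 4 h (median 0.21), and E2f2, a factor that drives S phase genes, fell (-1.35 ± 0.032 (SE), adjusted p = 4.7e-10). Of these genes, at 24 h 2 rose and 6 fell (median -0.076), and E2f3, a close relative, fell (-0.44 ± 0.058 (SE), adjusted p = 0.000193). At 4 h E2f3 had risen (0.73 ± 0.058 (SE), adjusted p = 1.5e-06). Of 13 genes of the DNA damage checkpoint and repair 3 rose and 7 fell at 4 h (median -0.26), and 2 rose and 3 fell at 24 h (median -0.013). The damage kinase Atm fell at 4 h (-0.91 ± 0.067 (SE), adjusted p = 7.36e-07) and rose at 24 h (0.42 ± 0.067 (SE), adjusted p = 0.000689).

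Markers of cell types of this tissue and of blood were counted in the same fits, where 45.0% of all genes fell and 29.0% rose at 4 h and 25.9% fell and 21.6% rose at 24 h. Of 11 measured markers of neural progenitors and immature neurons, 5 rose and 4 fell at 4 h and 2 rose and 5 fell at 24 h, with mean levels of -0.44 to -0.41 with saline and -0.36 to -0.33 with LPS at 4 h, and of 0.17 to 0.21 and 0.045 to 0.083 at 24 h. Eomes, the marker of dividing intermediate progenitors, was not above background on all arrays of any group. Of 6 markers of oligodendrocyte precursors, 1 rose and 4 fell at 4 h and 1 rose and 3 fell at 24 h, with mean levels of 1.76 to 1.77 with saline and 1.48 to 1.5 with LPS at 4 h, and of 1.45 to 1.49 and 1.35 to 1.38 at 24 h. Microglia markers went in opposite directions, with 6 of 8 lower and 1 higher at 4 h and 7 higher and 1 lower at 24 h, and mean levels of 3.16 to 3.18 with saline and 2.68 to 2.71 with LPS at 4 h, and of 2.04 to 2.07 and 2.45 to 2.51 at 24 h.

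Of 8 endothelial markers 7 fell and 1 rose at 4 h and all 8 rose at 24 h, with mean levels of -0.74 to -0.73 with saline and -2.24 to -2.20 with LPS at 4 h, and of -1.06 to -0.99 and -0.54 to -0.50 at 24 h. Of 6 astrocyte markers 2 rose and 3 fell at 4 h and 4 rose and 2 fell at 24 h, with mean levels of 4.35 to 4.38 with saline and 4.13 to 4.13 with LPS at 4 h, and of 3.58 to 3.60 and 3.66 to 3.69 at 24 h. Of 8 measured markers of blood leukocytes 4 rose and 2 fell at 4 h and 2 rose at 24 h, with mean levels of -4.49 to -4.07 with saline and -3.62 to -3.25 with LPS at 4 h, and of -4.28 to -3.90 and -3.78 to -3.61 at 24 h. Of 4 measured markers of red blood cells 3 fell at each time, with mean levels of 1.75 to 1.89 with saline and 1.05 to 1.36 with LPS at 4 h, and of 1.49 to 1.71 and 0.94 to 1.11 at 24 h. Of the 12 markers of hippocampal neurons 8 rose and 1 fell at 4 h and 10 fell at 24 h, with mean levels of 1.2 to 1.23 with saline and 1.60 to 1.62 with LPS at 4 h, and of 2.00 to 2.01 and 1.66 to 1.67 at 24 h. The part of these shifts in the cell cycle results was not tested. Mean marker levels were highest in saline 4 h for microglia, astrocytes, oligodendrocyte precursors and red blood cells. They were highest in saline 24 h for neural progenitors and immature neurons and for hippocampal neurons. Endothelial markers were highest in LPS 24 h and those of blood leukocytes in LPS 4 h. Most of the cell cycle genes were highest in saline 4 h, and the share of all genes highest there was not counted.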

How the data were processed

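Total RNA of mouse hippocampus was measured on 12 one-colour Agilent arrays (Cy3). Per the file headers, the deposited scanner files hold processed spot intensity from Feature Extraction 10.7.3.1, with probes placed on mm9, and the submitters' processing notes name version 9.1. The deposited matrix holds log2 values, which normexp with an offset of 50 and quantile normalization of the scanner values matched within 0.126. Here log2 of the processed intensity minus that of each array's 75th percentile was used; 926 spots marked as outliers were left out, repeated spots were averaged, and 0 spots were saturated. A probe was kept if well above background on all 3 arrays of a group (27683 of 41174 probes), and the brightest probe by mean signal stood for a gene. limma 3.58.1 in R 4.3.3 fitted 4 group means over the 12 arrays for 18193 genes (two-sided, Benjamini-Hochberg over all of them, threshold 0.05), after being tested on simulated data. The 3 arrays per group limit the precision. Each of 6 slides held 1 saline and 1 LPS array of the same time.

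The members and lists were chosen with earlier results of these data known. All 32 members are accounted for. Of each companion list up to 3 genes with the smallest adjusted p per time were eligible to be named. The first of them is given, Cdkn1a always, and Tob1 because it rose more than Cdkn1a at 4 h. Alternatives tried were another background correction, 3 other scalings, 2 other filters, use of the deposited matrix, the mean of a gene's probes, fits on 6 arrays, slide and replicate blocks, moderation, thresholds, the saline arrays of the other time, and leaving out each array. Promoter windows came from RefSeq tables of another build than the probes, and those of Aurkb, Ccna2, Ccnd1, Kif20a, Mcm4 and Tpx2 were not used here.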

Additional observations from a re-analysis of the deposited data

Results flagged for a closer look

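The LPS response (log2 LPS minus saline) differed between 24 h and 4 h, by limma's test of that difference, for the following genes. The value given is the 24 h difference minus the 4 h difference. Among the cell cycle and replication genes the difference was above 0 for Ccnd1 0.23, Ccne1 0.82, Mcm2 0.63, Mcm3 1.04, Mcm4 0.14, Mcm7 0.23, Rrm1 0.44, Tyms 0.23, Aurka 0.61, Nusap1 0.27, Birc5 0.52 and Cdc20 1.05. It was below 0 for Rrm2 -1.23, Mki67 -0.77, Ccna2 -0.27, Ccnb1 -0.65 and Cenpe -0.79. Mcm2, Mcm3 and Cenpe are the genes of these whose response was called in opposite directions at the 2 times. Of all genes tested, 41.7% had a difference called above 0 and 27.1% below 0. The counts of cell cycle genes lie near or below these shares.

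Among the other genes named, the difference was above 0 for Atm 1.33, Ccnd3 0.73, Cdca5 1.34, Cdt1 1.28 and E2f2 1.30. It was below 0 for Tob1 -2.95, Cdkn1a -1.29, Cdk6 -1.14, Pbk -0.79 and E2f3 -1.17. The arrays of each time were scanned on a day of their own, so time after injection and scan day cannot be told apart in these values.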

How the results depend on the processing

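The counts of the 30 measured cell cycle genes changed by over 1.5 times under these settings. They are counts of these genes alone, without the shares of all genes. With normexp, 1 gene was called higher at 4 h, 0 higher and 5 lower at 24 h (limma; 2 higher at an unadjusted p under 0.05), 2 had a lower response at 24 h than at 4 h, and 1 was higher in saline 24 h than in saline 4 h. With median scaling, 1 was higher at 24 h and 0 were higher in saline 24 h (limma; 0 at an unadjusted p under 0.05). With the 75th percentile over probes above background on all arrays, 6 were higher at 4 h. In the deposited matrix 2 were higher at 24 h and 2 in saline 24 h, and quantile normalization also gave 2 in saline 24 h. Only probes above background on all 12 arrays left 1 higher at 4 h, and the slide block gave 5. A threshold of 0.01 left 1 higher in saline 24 h. At least 1.5-fold left 6 lower at 4 h, 1 higher and 1 lower at 24 h, 5 with a higher response at 24 h than at 4 h, and 0 higher in saline 24 h (limma; 4 at an unadjusted p under 0.05). With the saline arrays of the other time as controls, 23 were higher and 4 lower at 4 h.

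With those controls the 4 h difference turned positive for Ccne1 (0.11), Mcm3 (0.73), Mcm4 (0.71), Mcm6 (0.35), Rrm1 (0.14), Tyms (0.75), Ccna2 (0.47), Ccnb2 (0.48), Plk1 (0.36), Aurka (0.52), Kif20a (0.29), Nusap1 (0.61), Cenpf (0.54), Birc5 (0.86), Cdc20 (0.78) and Ube2c (0.43). It did not turn positive on the second probes of Ccne1 and Mcm3. The 24 h difference turned negative for Mcm3 (-1.39) and Mcm7 (-0.21), and that of Kif2c shrank to 0.12 (limma, adjusted p = 0.574). On the second Mcm3 probe mean levels were -1.30 in LPS 24 h and -1.27 in saline 4 h. Mcm6 at 4 h was 0.0069 after quantile normalization. The cause was not tested.

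Leaving out each array in turn gave 3 to 4 higher and 18 to 19 lower at 4 h, 3 to 4 and 13 to 15 at 24 h, 11 to 12 and 5 to 6 for the difference of the responses, and 2 to 4 and 22 to 23 for saline 24 h against 4 h. All 21 calls at 4 h and 15 of 19 at 24 h were kept without each array; Mcm2, Mcm4, Rrm1 and Aurka lost the 24 h call. Under normexp, the 3 other scalings and the deposited matrix, 9 of 21 calls at 4 h (Aurka, Birc5, Ccnb2, Ccne1, Cdc20, Kif20a, Mcm3, Rrm1 and Tyms) and 5 of 19 at 24 h (Birc5, Ccna2, Cenpe, Kif20a and Mki67) were kept throughout.

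Deviations of same-numbered arrays correlated at 0.104, 0.192 and -0.159 at 4 h, so the numbers do not pair them there, while arrays that shared a slide correlated at 0.274, -0.064 and 0.191. At 24 h the same-numbered arrays were those that shared a slide, with 0.0738, 0.105 and 0.099, and every other pair was below 0. With the replicate block 3 genes were higher and 18 lower at 4 h, 4 and 12 at 24 h, and 11 and 5 for the difference of the responses. With the slide block 18 were lower at 4 h and 3 were higher and 13 lower at 24 h. At 24 h the slide block ended the calls of Mcm2, Mcm4 and Aurka, and the replicate block those of Mcm4, Rrm1 and Aurka. Neither block could be fitted for saline 24 h against 4 h, since numbers and slides lie within a time. Spots near background limit Kif2c, Rrm2, Bub1b and Top2a the most.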
